A study of Rattus norvegicus with 13 samples.

Results

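The genes described here are 9 crystallin genes found by their symbols among the 28355 genes of the day 3 files: the alpha crystallins Cryaa and Cryab, the beta crystallins Cryba1, Cryba2, Cryba4, Crybb1, Crybb2 and Crybb3, and the gamma crystallin Crygs. They were chosen with day 3 values already known, above all the high level of Cryaa in vehicle replicate 3. Their levels and fold changes at day 3 are therefore a description: they come from the fit over all genes, and its calls are not read as evidence about them. The libraries came from the peripheral cornea with adjoining limboscleral tissue of wild-type male Lewis rats, 2 months old, in a study of limbal stem cell deficiency and of vessel growth into the cornea; how the cornea was injured is not described in the labels. At day 3 there were 3 libraries from rats given systemic spironolactone, a blocker of the mineralocorticoid receptor, by daily injection under the skin at 25 mg/kg/day, and 3 from rats given the vehicle of 90% olive oil and 10% DMSO. The labels do not say whether each library is a separate animal, so the spread between libraries may be partly technical. The 7 libraries of day 7 are not used here, because their gene IDs are not paired with names in the sources used here.

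Crystallins are the main soluble proteins of the eye lens, where they are packed at high concentration in the fibre cells and keep the lens clear. Alpha crystallins are small heat shock proteins that bind unfolding proteins, whereas beta and gamma crystallins form a separate superfamily of proteins built from Greek key folds. Cryaa is made mainly in the lens. Cryab is also made in heart, skeletal muscle, brain and other tissues, so it is set here against the other 8 genes, called lens-restricted below although low expression of several beta and gamma crystallins in retina is known.

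The 8 lens-restricted genes have start sites in RefSeq (build GRCr8), and the table used here holds a promoter window for each of the 8. The 150 bases before the start of 4 of them are shown: Cryaa, Cryba1 and Cryba4 because this stretch holds both motifs that were searched, and Crybb1 because it is 1 of 3 genes that hold neither and was also the lens-restricted gene that varied least among the other 5 libraries. Capitals mark TATAA, the core of the TATA box, and TGCTGA, the core of the half-site bound by large Maf factors, which drive crystallin genes in mouse lens. The windows are chr20:9784761-9784910 on the plus strand for Cryaa, chr10:63112818-63112967 on the minus strand for Cryba1, chr12:50046899-50047048 on the plus strand for Cryba4 and chr12:50043757-50043906 on the minus strand for Crybb1.
Cryaa: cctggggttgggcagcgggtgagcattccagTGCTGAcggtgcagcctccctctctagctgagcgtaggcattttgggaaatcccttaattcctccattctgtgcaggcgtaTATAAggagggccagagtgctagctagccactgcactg
Cryba1: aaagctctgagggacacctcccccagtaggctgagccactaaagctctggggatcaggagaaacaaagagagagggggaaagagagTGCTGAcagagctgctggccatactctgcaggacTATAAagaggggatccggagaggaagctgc
Cryba4: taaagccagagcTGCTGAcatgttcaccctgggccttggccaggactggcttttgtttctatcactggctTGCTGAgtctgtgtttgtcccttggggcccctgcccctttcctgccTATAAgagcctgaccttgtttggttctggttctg
Crybb1: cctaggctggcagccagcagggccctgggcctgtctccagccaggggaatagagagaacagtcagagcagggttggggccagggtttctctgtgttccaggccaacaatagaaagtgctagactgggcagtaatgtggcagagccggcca

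Both motifs were chosen after the sequences had been seen and were searched on both strands of the 250 bases before the start; their letters do not overlap in these windows. TATAA was found in 5 of the 8 windows, against 24.1% of 27457 RefSeq promoters. In all 5, Cryaa, Cryba1, Cryba2, Cryba4 and Crygs, it lay on the plus strand in the last 50 bases, where 4.55% of all promoters hold it. TGCTGA was found in the same 5 windows, against 15.2% of all promoters, and occurred 2 times in that of Cryba4. Neither was found in the windows of Crybb1, Crybb2 and Crybb3. A match is only a match of letters, and which start sites are used in these tissues was not measured. In the RefSeq table Crybb1 and Cryba4 are neighbouring genes, as are Crybb2 and Crybb3, and Cryab lies next to Hspb2, another small heat shock gene.

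The 6 libraries held 18176059 to 25311091 expected counts. Levels are given as CPM, expected counts scaled to a common library total with TMM factors, so that the 22 counts of Cryaa in spironolactone replicate 2 are 0.886 CPM. All 54 crystallin values were whole numbers, as were 99.5% to 99.6% of the values of all genes in each library. The sources used here do not say whether strand was used in counting. Reads of related or neighbouring crystallin genes may be hard to tell apart. Markers showed that the dissections held more than cornea: photoreceptor genes summed to between 237 and 5462 CPM, and the muscle actin gene Acta1 lay between 41.4 and 265 CPM. The corneal keratin gene Krt12 was low, at 7.80 to 12.2 CPM, beside 2862 to 7180 CPM of Krt5, a keratin of basal epithelium. Libraries that stood apart were spironolactone replicate 3, where photoreceptor genes were at a median of 5.75% of their mean in the other 5 libraries, and vehicle replicate 3 in the lens genes described next.

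Vehicle replicate 3 held far more lens crystallin transcript than any other library. Summed over the 8 lens-restricted genes, the level was 18.2, 2.17 and 11.8 CPM in spironolactone replicates 1, 2 and 3, and 14.2, 37.7 and 477 CPM in vehicle replicates 1, 2 and 3. The sum in vehicle replicate 3 was 12.6 times that in vehicle replicate 2, the next highest, and the spironolactone values lay on both sides of vehicle replicate 1. In deposited TPM, which also corrects for transcript length, the 8 genes made up 0.101% of the transcripts of vehicle replicate 3 and between 0.00043% and 0.00782% of those of the other 5. In bulk tissue, fewer cells of a type and less RNA per cell cannot be told apart.

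**Figure D1:**
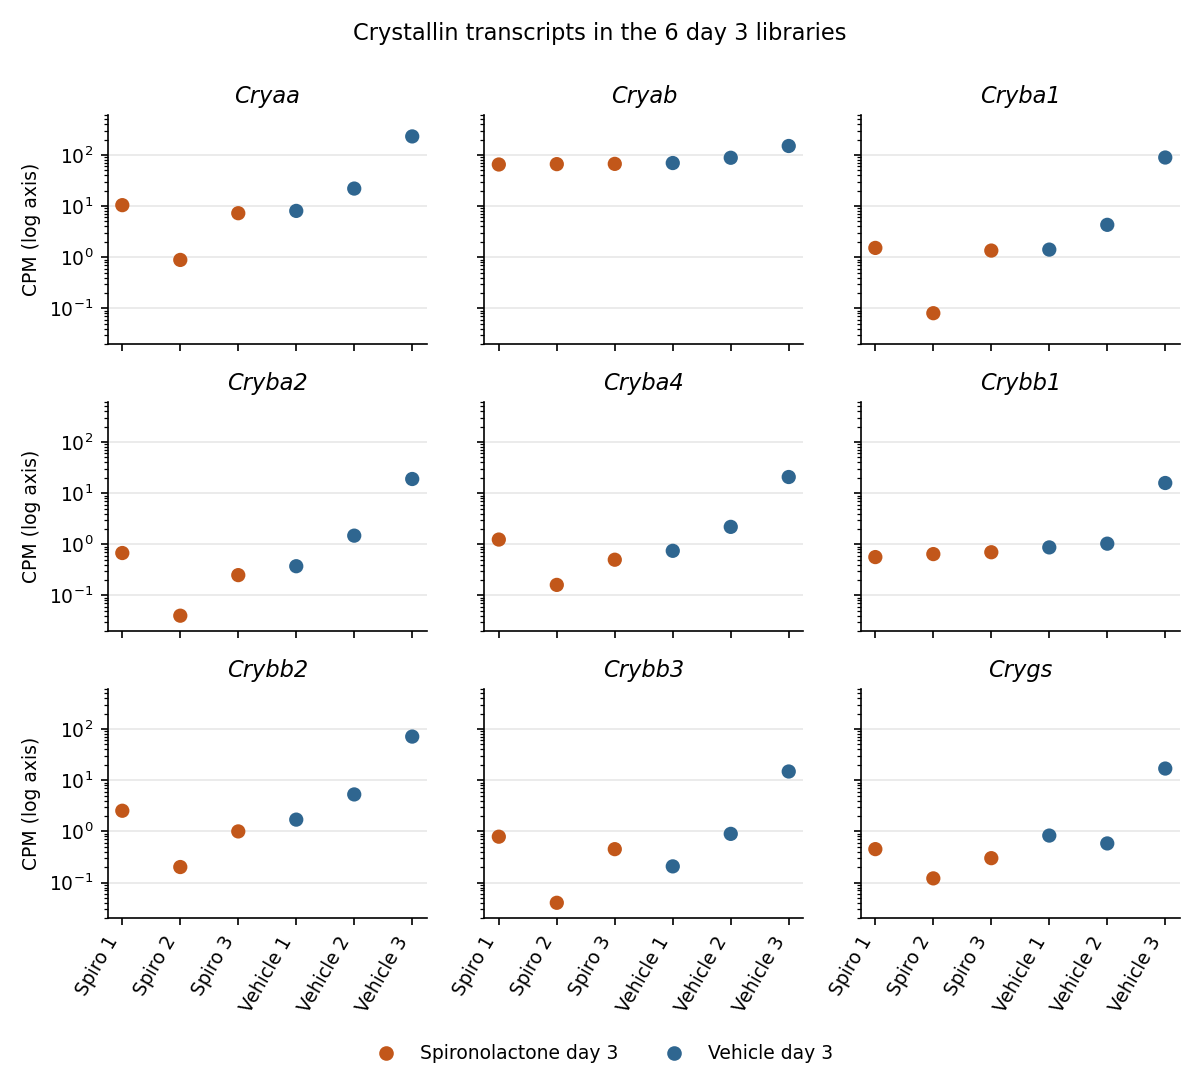
Level of each of the 9 crystallin genes in the 6 day 3 libraries, as TMM-scaled CPM on a log axis shared by all panels; each point is 1 library, spironolactone in orange and vehicle in blue. Vehicle replicate 3 is the highest library in all 9 panels, spironolactone replicate 2 is the lowest for 7 of the 8 lens-restricted genes, and Cryab stays between 64.9 and 149 CPM.

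Cryaa, the lens alpha crystallin, was the most abundant lens-restricted gene, at 10.4, 0.886 and 7.25 CPM in spironolactone replicates 1, 2 and 3 and at 8.04, 22.0 and 230 CPM in vehicle replicates 1, 2 and 3. Most libraries sat between 7.25 and 22.0 CPM, with 1 library below and 1 above them, and the treatments overlapped. Vehicle replicate 3 was 10.5 times as high as vehicle replicate 2, with a 95% interval of 9.53 to 11.5 that covers counting error only.

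Cryba1, which encodes 2 acidic beta crystallins from 1 transcript, had 1.52, 0.0805 and 1.35 CPM with spironolactone and 1.41, 4.30 and 88.9 CPM with vehicle. Crybb2, the major basic beta crystallin of the adult lens, had 2.53, 0.201 and 1.00 CPM with spironolactone and 1.70, 5.28 and 71.4 CPM with vehicle. Both followed the order of Cryaa at its 3 extremes: vehicle replicate 3 highest, vehicle replicate 2 next and spironolactone replicate 2 lowest, the last resting on 2 counts of Cryba1 and 5 of Crybb2. The ratio of vehicle replicate 3 to the next library was 20.7 for Cryba1 (95% counting interval 16.9 to 25.7) and 13.5 for Crybb2 (11.2 to 16.4), and over the 8 lens-restricted genes it ran from 9.43 for Cryba4 to this value of Cryba1.

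The other acidic beta crystallins were lower. Cryba4 had 1.24, 0.161 and 0.500 CPM with spironolactone, against 0.746, 2.19 and 20.7 CPM with vehicle. For Cryba2 the values were 0.676, 0.0403 and 0.250 CPM with spironolactone and 0.373, 1.48 and 18.9 CPM with vehicle. Spironolactone replicate 1 lay above vehicle replicate 1 in both genes, so the treatments overlapped, and vehicle replicate 3 was 9.43 times the next library for Cryba4 and 12.8 times for Cryba2. Crybb3, a basic beta crystallin, had 0.789, 0.0403 and 0.450 CPM with spironolactone and 0.207, 0.895 and 14.8 CPM with vehicle, again with overlap. The lowest values of Cryba2 and Crybb3 stand for 1 count each.

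Crybb1 and Crygs departed from this order. Crybb1, a basic beta crystallin with a long N-terminal arm, had 0.563, 0.644 and 0.700 CPM with spironolactone and 0.871, 1.03 and 15.8 CPM with vehicle. Outside vehicle replicate 3 it spanned only 10 to 23 counts, and spironolactone replicate 2, lowest for the other 7 lens-restricted genes, held 16 of them. Crygs, the gamma crystallin still made in the adult lens, had 0.451, 0.121 and 0.300 CPM with spironolactone and 0.829, 0.582 and 16.9 CPM with vehicle, so that here vehicle replicate 1 and not replicate 2 came second. In both genes every spironolactone library lay below every vehicle library, at counts of 3 to 23 outside vehicle replicate 3. Among the 9 crystallins 3 showed such a separation, these 2 and Cryab, against 16% of the 14761 genes tested, and the same 3 did so when vehicle replicate 3 was left out, against 25.8%.

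Within the lens-restricted set, Cryaa took the largest share of counts in every library: 57.3%, 40.7% and 61.4% in the spironolactone replicates, and 56.7%, 58.2% and 48.2% in the vehicle replicates. In vehicle replicate 3 its share had a Wilson 95% interval of 47.2% to 49.1%, below the interval of 54.9% to 61.5% in vehicle replicate 2. Cryba1 ran the other way, at 18.6% (17.9% to 19.4%) in vehicle replicate 3 and 11.4% (9.42% to 13.7%) in vehicle replicate 2. The share of Crybb1 was 29.6% in spironolactone replicate 2, where the whole set held 54 counts (19.1% to 42.8%), and between 2.73% and 6.14% in the other 5 libraries. These intervals cover counting error only, which is smaller than the spread between replicates.

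**Figure D2:**
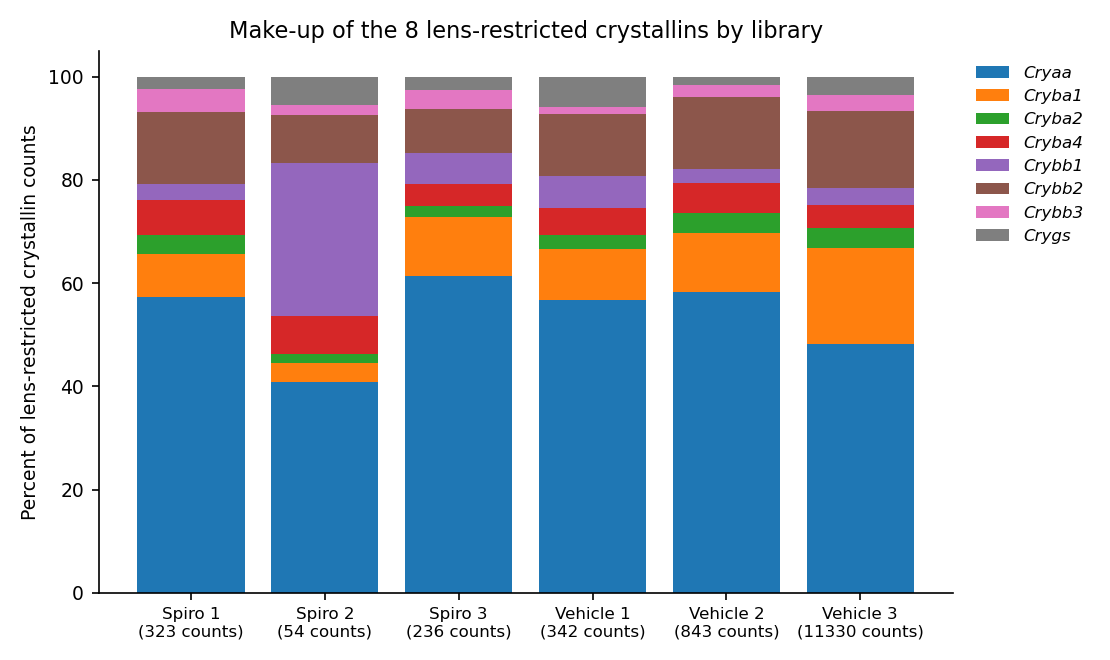
Share of each of the 8 lens-restricted crystallins in their summed expected counts, by day 3 library, with the summed counts under each bar. Cryaa takes 40.7% to 61.4%; Crybb1 takes 29.6% of the 54 counts in spironolactone replicate 2 and Cryba1 18.6% of the 11330 counts in vehicle replicate 3.

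Cryab differed from the lens-restricted genes in level and in range. It had 64.9, 66.0 and 66.8 CPM in spironolactone replicates 1, 2 and 3 and 69.4, 87.9 and 149 CPM in vehicle replicates 1, 2 and 3. The 3 spironolactone values lay within 2 CPM of each other and below all vehicle values. From its highest to its lowest library Cryab spanned 2.30-fold, and 1.35-fold without vehicle replicate 3, where the lens-restricted sum spanned 220-fold and 17.4-fold. Vehicle replicate 3 was 1.70 times the next library for Cryab (counting interval 1.61 to 1.80). In absolute terms this was 61.4 CPM more than vehicle replicate 2, beside 208 CPM more of Cryaa.

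On the TPM scale, which allows levels of different genes to be compared, Cryab was the highest of the 9 crystallins in 5 of 6 libraries. It had 88.5, 91.3 and 90.4 TPM with spironolactone, where Cryaa had 16.4, 1.42 and 11.3 TPM. In vehicle replicates 1 and 2 Cryab had 99.9 and 126 TPM and Cryaa 13.4 and 36.4 TPM. In vehicle replicate 3 the order turned: Cryaa had 373 TPM, Cryba1 225, Cryab 210 and Crybb2 193 TPM, followed by Cryba2 at 56.1, Cryba4 at 49.9, Crygs at 49.1, Crybb3 at 39.1 and Crybb1 at 29.6 TPM. Neighbours in that order whose counting intervals overlapped were Cryba1 and Cryab, and Cryba2, Cryba4 and Crygs, and the spread over other samples of this kind is unknown. The ratio of Cryab to Cryaa in TPM was 5.40, 64.3 and 7.98 with spironolactone and 7.46, 3.46 and 0.562 with vehicle.

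To see how far the excess in vehicle replicate 3 went beyond crystallins, genes at 1 CPM or more that were at least 4 times as high in 1 library as in any of the other 5 were counted. In vehicle replicate 3 there were 12 of 13928 such genes (0.0862%), while the other libraries had between 0 and 3. All 8 lens-restricted crystallins were among the 12, which is a description, since Cryaa in this library was a reason for the choice of genes. The other 4 were all on the marker list that was drawn up for lens, and those at least 8 times as high there were Mip, Grifin and Lim2. That list was chosen with earlier results of these data known, so this too is a description. Mip, the aquaporin of lens fibre membranes, had 0, 0 and 1 count in spironolactone replicates 1, 2 and 3 and 0, 9 and 233 counts in vehicle replicates 1, 2 and 3. Grifin, a galectin-related lens protein, had 6.61 CPM in vehicle replicate 3 and at most 0.582 CPM elsewhere. Lim2, a fibre membrane protein, had 40 counts there and at most 2 elsewhere. The gene next below the 4-fold threshold was Lgsn, a lens protein related to glutamine synthetase, at 2.51. Cryab, at 1.70, ranked 22nd of the 13928 genes by this ratio.

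**Figure D3:**
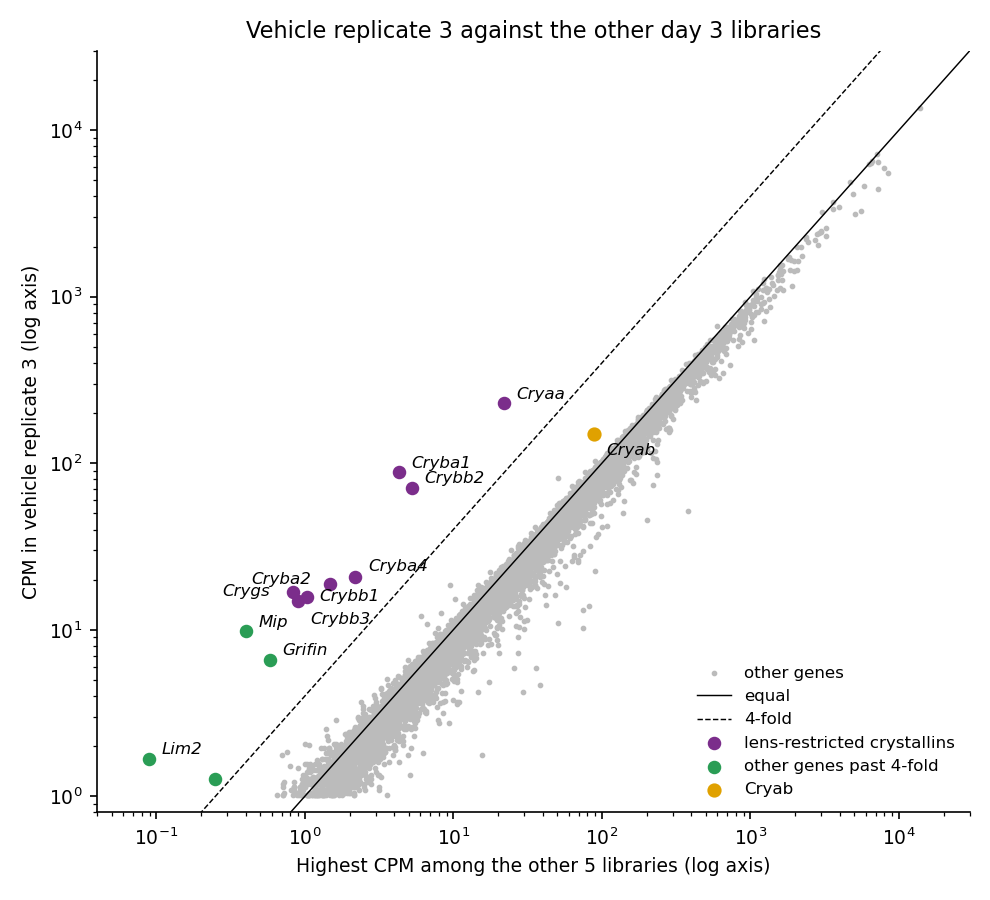
CPM of each gene in vehicle replicate 3 (vertical, log axis) against its highest CPM among the other 5 day 3 libraries (horizontal, log axis), for genes at 1 CPM or more in vehicle replicate 3; the solid line marks equal values and the dashed line a 4-fold excess. The 12 genes above the dashed line are the 8 lens-restricted crystallins (purple) and 4 other lens genes (green), with names given for genes past 8-fold and for Cryab, while Cryab (amber) has a ratio of 1.70.

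Not every lens gene stood out. Of the 14 genes on the lens fibre and lens epithelium list, these 4 were past the 4-fold mark, and the list summed to 12.8, 15.5 and 14.4 CPM with spironolactone and 12.2, 12.2 and 38.2 CPM with vehicle. The beaded filament genes Bfsp1 and Bfsp2 had ratios of 0.998 and 1.37, and Bfsp1 was at 4.16 to 5.95 CPM in all 6 libraries. Hsf4, a lens heat shock factor gene, lay between 1.49 and 2.28 CPM in all 6. Foxe3, a transcription factor gene of lens epithelium, had at most 2 counts in any library. The gamma crystallins of the embryonic and young lens were near 0: Cryga, Crygb, Crygc, Crygd and Crygf had at most 0.282 CPM in any library, against 16.9 CPM of Crygs in vehicle replicate 3. Crygn, a gamma crystallin gene outside that group, was at 0.843 CPM in vehicle replicate 3, 0.0895 CPM in vehicle replicate 2 and 0 counts elsewhere. Transcription factor genes that lens shares with other tissues did not stand out in vehicle replicate 3: Pax6 lay at 248 to 303 CPM in spironolactone libraries and 221 to 253 CPM in vehicle libraries, and Maf at 34.5 to 36.3 CPM in spironolactone libraries and 32.3 to 39.5 CPM in vehicle libraries.

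The lens crystallins did not rank the libraries as the markers of other tissues did. Photoreceptor genes summed to 3293, 4166 and 237 CPM with spironolactone and 5462, 4922 and 5057 CPM with vehicle. Spironolactone replicate 3, lowest by far in photoreceptor genes, lay between the other 2 spironolactone libraries in lens-restricted crystallins, and spironolactone replicate 2, lowest in crystallins, had the most photoreceptor transcript of the 3. Vehicle replicate 3 lay between the other 2 vehicle libraries in photoreceptor genes. Skeletal muscle genes summed to 201, 175 and 327 CPM with spironolactone and 579, 1358 and 1112 CPM with vehicle, highest in vehicle replicate 2. Corneal epithelial genes summed to 14107, 16239 and 16682 CPM with spironolactone and 8731, 8073 and 11316 CPM with vehicle. The part of these tissues in the crystallin values was not tested.

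**Figure D4:**
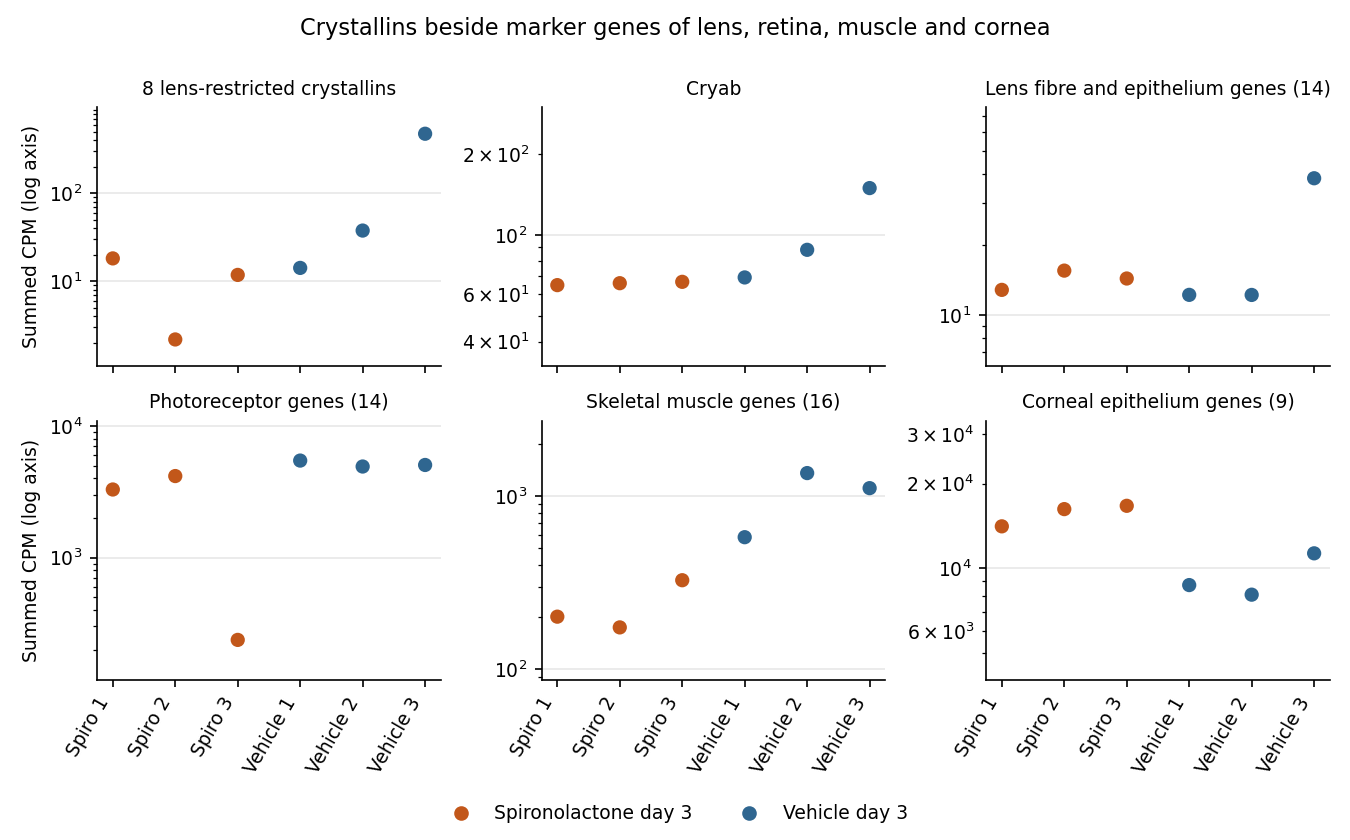
Summed CPM (log axis, scaled separately in each panel) of the 8 lens-restricted crystallins, of Cryab alone, and of 4 marker lists in the 6 day 3 libraries; each point is 1 library, spironolactone in orange and vehicle in blue. The lens genes peak in vehicle replicate 3, the photoreceptor genes drop to 237 CPM in spironolactone replicate 3, and the muscle genes are highest in vehicle replicate 2.

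Muscle also makes Cryab. For all 16 muscle genes found, as for Cryab, the 3 spironolactone values lay below the 3 vehicle values, against 16% of genes tested, and edgeR called 0 of the 16. The same held for 14 of 14 photoreceptor genes, 7 of 10 tested inner retina genes and 6 of 9 genes of pigment and ciliary epithelium. The part of these tissues in the Cryab values was not tested. Acta1 had 44.3, 41.4 and 70.8 CPM with spironolactone and 127, 265 and 223 CPM with vehicle. Its log2 fold change of -1.98 did not pass edgeR's quasi-likelihood test (adjusted p = 0.0748). The other small heat shock genes did not all lie on the same side. Of the 7 found, 4 had all spironolactone values below all vehicle values and 1, Hspb1, had them all above, against 16% of genes tested each way. Hspb6, of smooth and striated muscle, had 22.1, 26.0 and 31.7 CPM with spironolactone and 34.7, 67.8 and 53.6 CPM with vehicle (log2 fold change -0.97, adjusted p = 0.114). Hspb2, the neighbour of Cryab, had 0.762 ± 0.175 CPM in spironolactone libraries and 1.19 ± 0.116 CPM in vehicle libraries (SD, n = 3 each), and edgeR gave an adjusted p of 0.2. Hspb1, a widely expressed chaperone gene, was at 114 ± 9.12 CPM in spironolactone libraries and 92.5 ± 6.43 CPM in vehicle libraries (SD, n = 3 each), with an adjusted p of 0.0938 in edgeR. Of the 5 tested genes of this list, edgeR called 0 in either direction, and the median log2 fold change was -0.66 beside -0.01 over all genes tested.

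The genes whose log2 CPM followed Cryaa most closely over the 6 libraries, by Pearson r among 14760 others, were Cryba1 (0.996), Crybb2 (0.990), Cryba4 (0.981), Pold3 (0.980) and Cryba2 (0.979). Pold3, a DNA polymerase delta subunit gene, moved little, at 33.9 to 39.5 CPM. Those closest to Cryab were Trim63 (0.992), AABR07018857.1 (0.976), Crybb1 (0.974), Rptor (0.974) and Popdc2 (0.970). Trim63 encodes a ubiquitin ligase of muscle and had 6.70, 6.89 and 6.55 CPM with spironolactone and 6.88, 7.57 and 9.56 CPM with vehicle. With 6 libraries, these values of r rest largely on the extreme ones. On the log scale of Cryaa these were vehicle replicate 3, at 230 CPM, and spironolactone replicate 2, at 0.886 CPM. For Cryab it was vehicle replicate 3, at 149 CPM.

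The study's question at day 3 was which transcripts differ between spironolactone and vehicle. In the fit over all genes edgeR called 0 of 14761 (0%) after Benjamini-Hochberg adjustment at 0.05, while 3333 had a raw p below 0.05. Of the alternatives, limma-voom called 0 and DESeq2 called 1344 (9.11%). No crystallin was called by edgeR, and nothing is read from this, since the members were chosen on the same libraries. All 9 passed the filter on low counts; Cryba2, Crybb3 and Crygs reached 10 counts in only 3 libraries, of which vehicle replicate 3 was 1.

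Cryaa averaged 6.19 ± 4.86 CPM in spironolactone libraries and 86.6 ± 124 CPM in vehicle libraries (SD, n = 3 each). Crygs had 0.290 ± 0.165 CPM in spironolactone libraries, against 6.12 ± 9.37 CPM in vehicle libraries (SD, n = 3 each). For all 8 lens-restricted genes the vehicle SD was larger than the vehicle mean. Their log2 fold changes ran from -5.09 (SE 1.97) for Cryba1 to -3.20 (SE 1.37) for Crybb1, with -3.86 (SE 1.57) for Cryaa. Without vehicle replicate 3 they ran from -1.59 for Cryba2 to -0.42 for Crybb3, with -1.28 for Cryaa, -1.56 for Cryba1 and -0.55 for Crybb1. Cryab had 65.9 ± 0.933 CPM in spironolactone libraries and 102 ± 41.9 CPM in vehicle libraries (SD, n = 3 each), a log2 fold change of -0.63 (SE 0.28) that was -0.24 without vehicle replicate 3. Vehicle replicate 3 thus set most of the size of the 8 lens-restricted differences and of that of Cryab. For each of the 9 genes the difference between the treatments in mean CPM was smaller than the SD of the vehicle libraries.

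**Figure D5:**
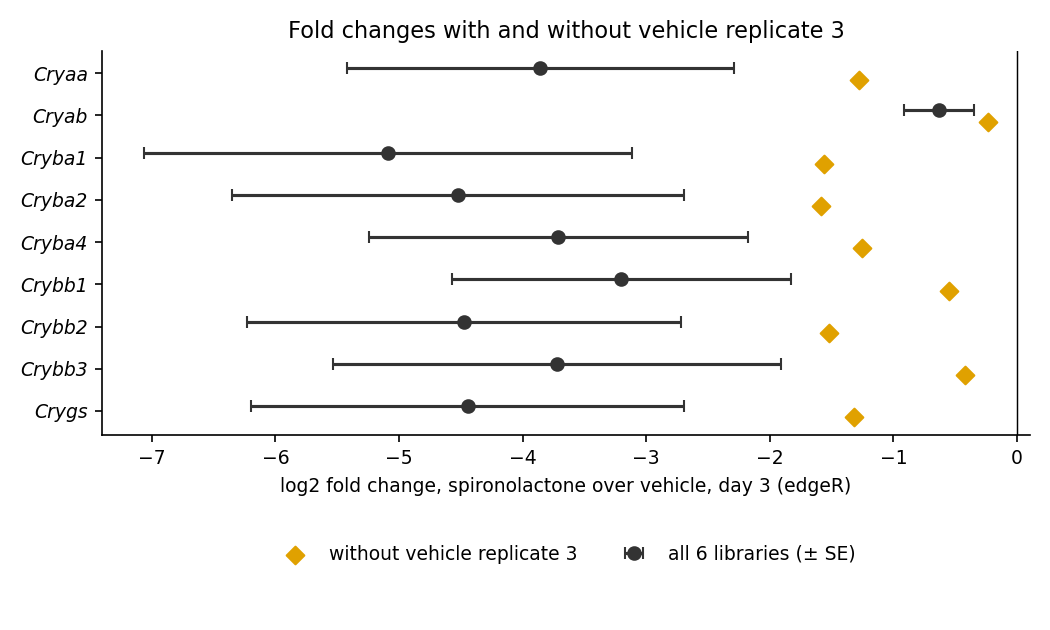
log2 fold change of each crystallin gene, spironolactone over vehicle at day 3, from edgeR with all 6 libraries (black points, bars ± 1 SE) and without vehicle replicate 3 (amber diamonds). Values of -5.09 to -3.20 for the lens-restricted genes shrink to -1.59 to -0.42 without that library, and that of Cryab from -0.63 to -0.24.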

How the data were processed

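RNA-seq was made from 13 libraries, and the 6 of day 3 were used. The submitters' processing notes name STAR 2.5.3a and RSEM 1.2.28, the quality and read tools Picard, DRAGEN, fastp and FastQC, the packages edgeR 3.28.0 and DESeq2 1.26.0, and the builds rn6 and Rnor_6.0, without their roles. The deposited expected counts, which need not be whole, and the deposited TPM values are per gene symbol, per the file headers. In total 3 rows carry the name of an annotation source in place of a gene; they held 0.12% to 0.181% of the counts and were left out.

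Expected counts were rounded. After a filter on low values (filterByExpr, minimum count 10) and TMM scaling, edgeR 4.0.16 in R 4.3.3 gave robust quasi-likelihood fits of spironolactone against vehicle, with Benjamini-Hochberg adjustment over all genes at 0.05. Each SE was taken as the size of the log2 fold change over the root of its F statistic. CPM values use the TMM factors, and correlations use log2 CPM with a prior count of 2. DESeq2 1.42.0 and limma 3.58.1 were alternatives. The fit was also run on simulated counts with the same dispersion for all genes and no outlying library. That run therefore says nothing about the effect of an outlying library. Replicates differed by more than sampling noise (chi-square per gene 7.90 to 23.2). Intervals for shares are Wilson's; those for ratios of 2 libraries are exact binomial.

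Replicate numbers are those of the sample titles. The planned day 7 fit was not run.

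The crystallin genes and the marker lists were chosen with earlier results of these data known. All 9 crystallins are named, with up to 4 genes of highest mean CPM per list, the 5 genes closest to Cryaa and to Cryab, and the 8 of highest CPM among genes past the 4-fold mark in vehicle replicate 3; other genes named were chosen after their values were seen. Promoters are from RefSeq, build GRCr8, at the first start listed per gene; Cryab has none in the table used. That build differs from the files', and no coordinate was carried between them. Values of some single marker genes are not reported here; the sums and counts of their lists include them.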

Additional observations from a re-analysis of the deposited data

How the results depend on the processing

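Leaving out vehicle replicate 3 moved the log2 fold changes of all 8 lens-restricted crystallins by more than the spread within groups; in TPM with a pseudocount of 1 this was so for Cryba2 (-2.30), Crybb1 (-1.53) and Crygs (-2.13). Every log2 fold change obtained for the 9 crystallins under these alternatives was negative. Vehicle replicate 3, the highest library for all 9, was kept in every setting but the fits without it. The shared sign in those settings is therefore no separate check on direction. The filter of 1 CPM in 3 libraries removed Cryba2, Crybb1, Crybb3 and Crygs and gave no value for them. The number of genes called by edgeR was 0, and 1344 with DESeq2, whose calls among the crystallins are not read here. It was 148 with no filter on low counts, 0 to 781 with 1 library left out (781 without vehicle replicate 3, 40 without vehicle replicate 1, 2 without spironolactone replicate 3) and 1040 without replicate 3 of both treatments. RLE size factors, limma-voom and a filter of 1 CPM in 3 libraries gave 0. Deviations of same-numbered libraries correlated at 0.09, -0.08 and 0.05, and those of other pairs at -0.106 to 0.05. Spironolactone replicates 1 and 3 correlated best with the vehicle library of their own number, and spironolactone replicate 2 with vehicle replicate 1. Values this small do not decide whether replicate numbers pair the libraries. With the replicate block edgeR also called 0, and the log2 fold change of Cryaa was -3.09. The alternatives for vehicle replicate 3 were added after the data were seen. The 12 genes standing out there numbered 11 at 8-fold, 12 at 3-fold and 27 in TPM, where the same 12 were joined by 15 that had at most 20 counts in that library and were under 1 CPM. Its ratio to the next library for Cryaa was 10.3 to 10.5 under the other scalings. Low counts limit the lens-restricted genes in spironolactone replicate 2, the deepest library, where 7 of the 8 had 16 counts or fewer.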

Other observations

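Crystallin-named genes outside the alpha, beta and gamma crystallins of the lens did not show the excess in vehicle replicate 3. Crym, a thyroid hormone binding protein, had 18.3, 21.4 and 5.15 CPM with spironolactone and 29.6, 29.7 and 28.6 CPM with vehicle, lowest in spironolactone replicate 3 as the photoreceptor genes were. Cryl1, a sugar dehydrogenase gene, had 29.3, 28.8 and 27.8 CPM with spironolactone and 18.0, 21.8 and 22.3 CPM with vehicle. Its log2 fold change of 0.47 missed edgeR's threshold (adjusted p = 0.0748). Crybg3, a larger protein with beta-gamma folds, lay between 45.9 and 61.9 CPM in all 6 libraries, and Cryzl1 between 13.4 and 17.5 CPM. None of these 4 was as much as 1.5 times as high in vehicle replicate 3 as in the next library, where Mip was 24.4 times as high.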
